A study of Mus musculus with 6 samples.

Results

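The genes described here are 41 genes of the cell division cycle, from the proliferation marker Mki67 to the inhibitors of the cyclin-dependent kinases, measured in interscapular brown adipose tissue (iBAT) of control and ob/ob mice. They were listed by name, with earlier results of these data known, and all 41 were found among the 20630 genes named on the array through RefSeq accessions. For each gene the probe with the brightest mean log2 signal over 6 arrays was taken. The comparison asks which of these genes differed in expression between obese and control iBAT. RNA of 3 control and 3 ob/ob samples was hybridised to Agilent arrays with 1 colour, 1 array per sample. Both groups were male mice on the C57BL/6 background, 16 weeks old, and the labels give no treatment for either. The groups differed in genotype, control or ob/ob, the latter a leptin-deficient line that becomes obese and hyperglycemic. The labels do not say whether an array holds RNA of a single mouse, so the p-values below measure only the spread between these samples.

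In dividing cells, D-type cyclins with CDK4 release E2F transcription factors from the retinoblastoma proteins, and E2F then switches on the genes of DNA replication. A later wave of genes for mitosis is switched on by B-MYB and FOXM1, which reach a promoter element named the cell cycle genes homology region (CHR), often together with CCAAT boxes bound by NF-Y. Mature brown adipocytes rarely divide, and cycling cells of this tissue are mainly adipocyte progenitors, endothelial cells and immune cells.

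RefSeq promoter sequences (assembly GRCm38.p6, 250 bases before to 50 bases after the start of the gene) were at hand for 33 of the 41 genes, 38 promoters in all. The letters searched on both strands were TTTGAA and TTCGAA for CHR, CCAAT for the CCAAT box, and TTTGGCGC, TTTCCCGC, TTTGGCGG, TTTCCCGG and TTTGCCGC for E2F. No match of one motif overlapped a match of another in a promoter of these genes. CHR and CCAAT letters occurred together in both promoters of the proliferation markers, in 4 of 5 promoters of mitotic cyclins and kinases and in 5 of 6 of the spindle group, against 7.52% of all 32851 promoters of the same length. E2F letters occurred in 6 of 10 promoters of the replication genes, against 3.73% of all promoters. The promoters of the 3 nucleotide synthesis enzymes held neither CHR nor E2F letters. A match describes the letters and is no measured binding site. The stretch from 170 bases before to 30 bases after the start is shown for 6 genes chosen by name, with every motif match in capitals. Aurka and Cdk4, described below, are not among them. Mki67 (chr7:135716350-135716549, minus strand) shows a pair of CHR matches, Mcm5 (chr8:75109339-75109538, plus strand) an E2F match read on the other strand, and Cdc20 (chr4:118437314-118437513, minus strand) a CHR match between a pair of CCAAT boxes. Rrm2 (chr12:24708084-24708283, plus strand) and Ccnb1 (chr13:100786457-100786656, minus strand) show CCAAT boxes alone. In Plk1 (chr7:122159265-122159464, plus strand) a CCAAT box is shown, and its CHR match begins 31 bases into the gene, past the stretch shown.
Mki67: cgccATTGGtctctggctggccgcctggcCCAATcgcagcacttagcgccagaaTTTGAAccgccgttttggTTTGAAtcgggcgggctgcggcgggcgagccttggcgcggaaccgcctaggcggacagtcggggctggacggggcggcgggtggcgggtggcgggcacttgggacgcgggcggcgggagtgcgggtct
Mcm5: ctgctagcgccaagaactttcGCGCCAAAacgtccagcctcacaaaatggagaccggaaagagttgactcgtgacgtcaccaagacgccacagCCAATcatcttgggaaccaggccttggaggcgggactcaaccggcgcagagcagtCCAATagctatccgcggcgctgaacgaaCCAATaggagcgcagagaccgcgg
Rrm2: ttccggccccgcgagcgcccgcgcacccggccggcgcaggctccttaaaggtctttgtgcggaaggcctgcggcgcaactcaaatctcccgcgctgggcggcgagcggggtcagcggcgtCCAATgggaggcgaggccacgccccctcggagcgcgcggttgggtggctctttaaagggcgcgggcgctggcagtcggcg
Ccnb1: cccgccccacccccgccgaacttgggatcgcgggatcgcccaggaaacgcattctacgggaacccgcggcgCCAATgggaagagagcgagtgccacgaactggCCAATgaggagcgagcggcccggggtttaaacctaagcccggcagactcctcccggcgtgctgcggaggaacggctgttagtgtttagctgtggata
Plk1: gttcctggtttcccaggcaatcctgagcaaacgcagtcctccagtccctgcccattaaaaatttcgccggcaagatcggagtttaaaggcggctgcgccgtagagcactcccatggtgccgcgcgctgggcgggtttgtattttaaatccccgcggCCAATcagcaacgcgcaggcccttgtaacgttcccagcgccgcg
Cdc20: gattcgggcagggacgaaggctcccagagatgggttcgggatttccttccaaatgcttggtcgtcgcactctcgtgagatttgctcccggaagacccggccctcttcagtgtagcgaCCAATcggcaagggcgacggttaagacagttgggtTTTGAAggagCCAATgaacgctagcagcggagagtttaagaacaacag

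All arrays gave signal well above background on 83.5% to 89.9% of their spots, and the 75th percentile of the processed signal lay between 94.5 and 292 intensity units. Of the 41 genes, 33 were well above background on all 6 arrays and 38 on at least 3 arrays, which was required for the test. The array labelled control 3 correlated with ob/ob 1 and ob/ob 2 at Spearman 0.91 and 0.94 across probes, but with control 1 and control 2 at 0.64 and 0.73. The array labelled ob/ob 3 correlated with control 1 and control 2 at 0.86 and 0.77, but with ob/ob 1 and ob/ob 2 at 0.57 and 0.49. Probes are no independent replicates, so these values describe the arrays only. ob/ob 3 also had the lowest spike-in level, 4.01 on the log2 scale against 6.19 to 7.10 on the other arrays. Control 1, control 3 and ob/ob 1 were scanned together and each other array alone. Leptin (Lep) RNA had log2 signals of 5.74, 4.57 and 5.30 on the control arrays and 6.68, 5.83 and 9.33 on the ob/ob arrays, all of them higher, but the ob allele is a point mutation that leaves a transcript, so this probe does not test for the allele. Ucp1 and the adipocyte genes Adipoq and Fabp4 were well above background on all 6 arrays, whereas Elovl3, another brown fat gene, was so on the 3 control arrays alone. Lep and Elovl3 thus divided the arrays by their labels, while the correlations did not. Over all genes tested, 3.76% were higher and 4.19% lower in ob/ob iBAT without overlap. Of 6 brown adipocyte markers, 2 were lower in ob/ob iBAT without overlap, Elovl3 among them. The other 4, Ucp1 included, were lower on control 3, ob/ob 1 and ob/ob 2 than on the other arrays. Whether the labels of control 3 and ob/ob 3 are right cannot be settled from these values, and an exchange would change every difference between ob/ob and control given here. Because these arrays stand apart from their groups, differences are also given without them where they matter to a result.

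No cell cycle gene passed the test. limma's test with Benjamini-Hochberg adjustment over all 35448 probes called 0 of the 38 genes tested at an adjusted p under 0.05 (their lowest adjusted p was 1.0), and it called 0% of probes in each direction over the whole array, where the lowest adjusted p was 0.15 and 1245 probes had an unadjusted p under 0.05. The methods' t-test with the same adjustment also called 0 of the 38. At an unadjusted p under 0.05, 2 genes were higher in ob/ob iBAT and 0 lower, where 2.03% and 1.68% of all 19007 genes tested were. All 3 ob/ob arrays lay above all 3 control arrays for 7 genes and below for 1, where 3.76% and 4.19% of all genes did so. An exact two-sided permutation test gives p = 0.10 for each of these 8, the smallest p that 3 against 3 arrays allow. The means differed by at least 2-fold for 6 genes higher and 2 lower in ob/ob iBAT, where 6.68% and 6.47% of all genes did. The median log2 difference, ob/ob minus control, was 0.13 over the 38 genes, with 21 above 0 and 17 below, beside a median of -0.09 over all genes, 42.9% of which were above 0. Scaled to each array's 75th percentile instead, the median over all probes moved from -0.073 to -0.32 and that of the 38 genes to -0.17, and 5 of the 38 changed sign.

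**Figure D1:**
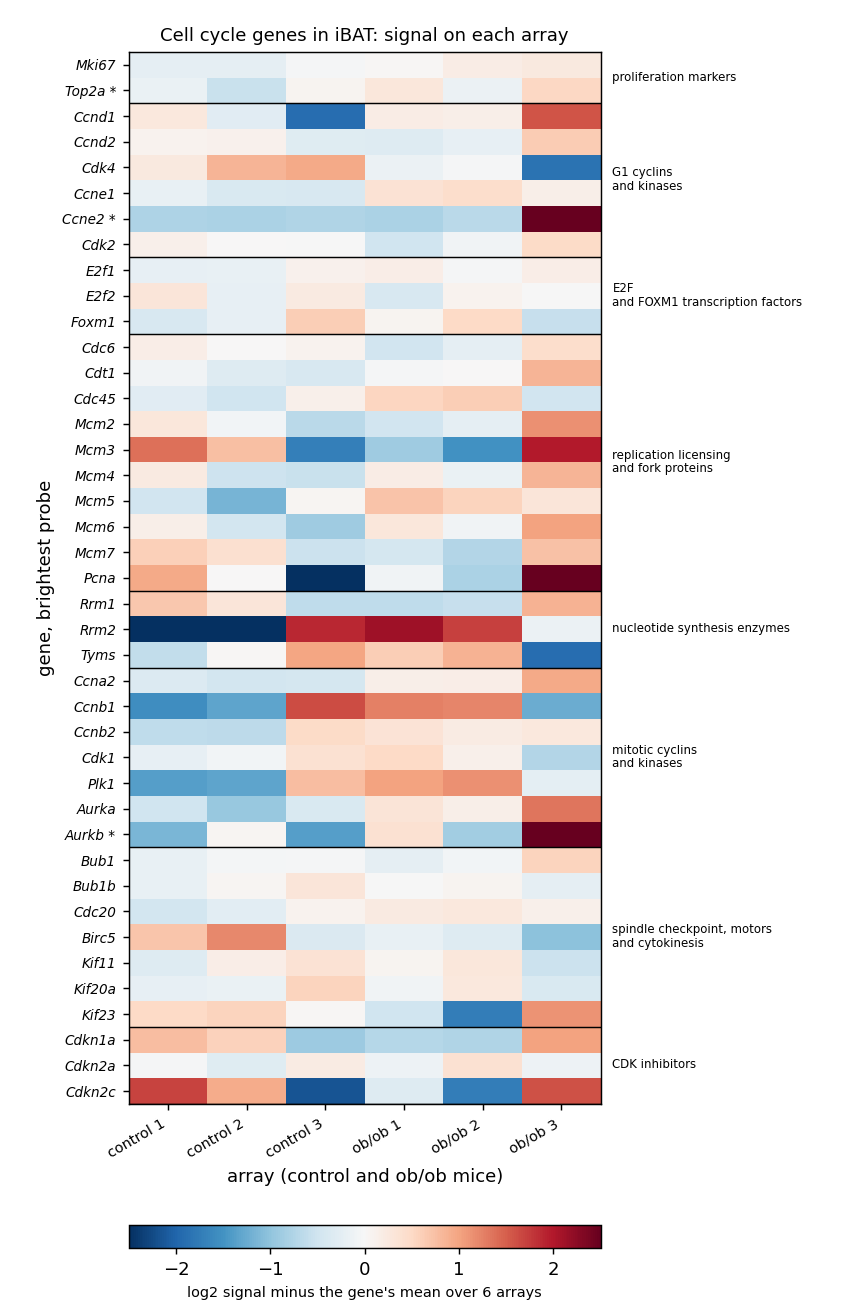
Log2 signal of each of the 41 genes (rows, by role) on each array (columns), as the difference from that gene's mean over the 6 arrays; red is above and blue below the mean, colours saturate at the ends of the scale, and a star marks the 3 genes not tested. ob/ob 3 has the highest value for 19 of the 38 genes tested, and blocks of control 3 with ob/ob 1 and ob/ob 2 are visible in Rrm2, Ccnb1 and Plk1.

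Many of these genes split the arrays across the group labels. Control 3, ob/ob 1 and ob/ob 2 together lay above the other 3 arrays for 8 genes and below them for 10, 47.4% of those tested, where 61.6% of all genes split in this way. ob/ob 3 gave the highest value for 19 of 38 genes and control 3 the lowest for 11. Without control 3 and ob/ob 3, limma's test on the remaining 4 arrays put 9 of the 38 genes higher and 7 lower in ob/ob iBAT at an adjusted p under 0.05, where 22.3% and 27.3% of all genes were called. With all arrays kept but weighted by their quality in limma, 10 were higher and 8 lower, where 24.5% and 27.7% of all genes were called. Arrays were left out or weighted by their values, so these counts are no independent support, and shares of this size were called over the whole array. In what follows, values of a group are log2 signals in the order of arrays 1, 2 and 3, and "4 arrays" marks the log2 difference without control 3 and ob/ob 3.

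**Figure D2:**
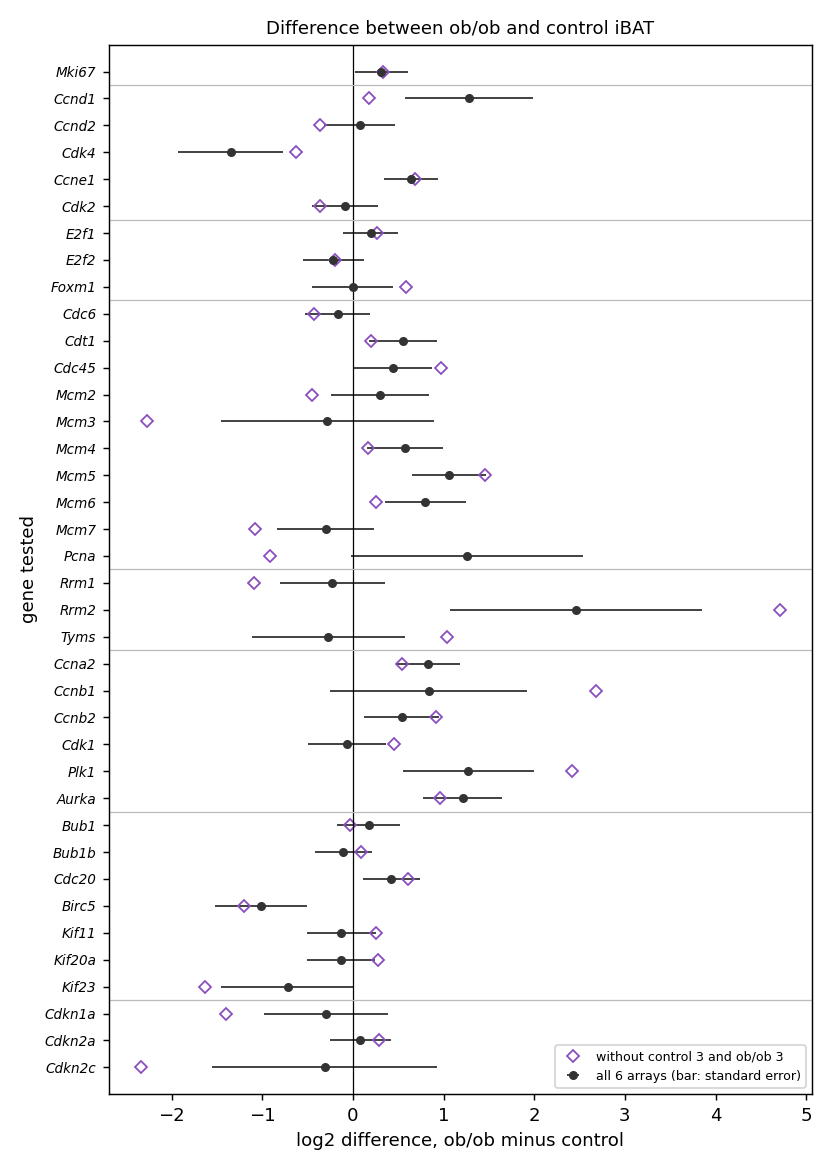
Log2 difference between ob/ob and control iBAT (horizontal axis) for the 38 genes tested, grouped by role with grey lines. Filled points with standard errors use all 6 arrays, and open diamonds leave out control 3 and ob/ob 3. Rrm2 moves from 2.46 to 4.71 and Pcna from 1.26 to -0.91 between the symbols.

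Mki67, the nuclear protein used to mark cycling cells, had log2 signals of 5.95, 5.96 and 6.14 on control arrays 1 to 3 and 6.21, 6.37 and 6.42 on ob/ob arrays 1 to 3. The ob/ob arrays were all above the control arrays, by a narrow margin between control 3 and ob/ob 1. The difference was 0.31 with a standard error of 0.29 (95% interval -0.40 to 1.02; 4 arrays 0.33), and limma's unadjusted p was 0.33. A further Mki67 probe gave 5.52, 5.56 and 5.97 in control and 6.10, 5.47 and 6.49 in ob/ob iBAT, and its groups overlapped, with a difference of 0.34. Top2a, the topoisomerase that untangles chromosomes for mitosis, was not well above background on any control array and was so on 2 ob/ob arrays. Its measured log2 signals were 3.94, 3.56 and 4.18 in control and 4.39, 3.97 and 4.62 in ob/ob iBAT, and the groups overlapped. Because ob/ob 2 was not well above background either, no fold is given, and Top2a was not tested.

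Among the G1 cyclins and kinases, which carry a cell up to DNA replication, the members differed in opposite directions. Cdk4, the kinase partner of the D-type cyclins, had log2 signals of 10.43, 11.04 and 11.13 in control and 10.05, 10.16 and 8.34 in ob/ob iBAT. It was the single gene of the 38 with all ob/ob arrays below all control arrays, and ob/ob 3 was lowest by far. The means differed by -1.35 with a standard error of 0.58, or 2.55-fold lower (limma's unadjusted p = 0.056; 4 arrays -0.63). The remaining Cdk4 probes gave 0.13 and -0.02, and both had overlapping groups, so the brightest probe stands alone.

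Ccne1, the cyclin E that starts S phase with CDK2, had log2 signals of 6.39, 6.19 and 6.17 in control and 6.93, 7.02 and 6.72 in ob/ob iBAT. Both groups were tight and did not overlap. The difference was 0.64 with a standard error of 0.30, or 1.56-fold (limma's unadjusted p = 0.074; 4 arrays 0.68). A dimmer Ccne1 probe was below background on all control arrays and above it on 1 ob/ob array alone, so no fold is given there.

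Ccnd1, the cyclin D induced by growth signals, gave 6.25, 5.71 and 4.08 on the control arrays and 6.17, 6.14 and 7.57 on the ob/ob arrays. Control 3 was its lowest array, not well above background, and ob/ob 3 its highest. The groups overlapped, and the difference of 1.28 (standard error 0.70) was 0.65 without control 3, 0.81 without ob/ob 3 and 0.18 on the 4 arrays. Ccnd2, its relative, gave 6.25, 6.27 and 5.86 against 5.85, 5.95 and 6.80, with a difference of 0.07 (95% interval -0.86 to 1.01). Cdk2 differed by -0.09 (95% interval -0.97 to 0.79). Ccne2, the second cyclin E, was above background on 1 array alone, ob/ob 3, at 6.33 against 1.76 to 1.88 on the other 5 arrays. The other ob/ob arrays were below background too, so no fold is given.

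Of the transcription factors of the cycle, none of the 3 brightest probes separated the groups. E2f1, an activator of the replication genes, gave 5.25, 5.26 and 5.55 in control and 5.61, 5.43 and 5.62 in ob/ob iBAT, and the groups overlapped. Its difference was 0.20 (95% interval -0.53 to 0.92), and it turned to -0.18 with 75th percentile scaling. E2f2, a close relative, gave 6.72, 6.19 and 6.64 against 6.01, 6.5 and 6.39, a difference of -0.21 (95% interval -1.02 to 0.59). Foxm1, the activator of mitotic genes, gave 6.10, 6.30 and 7.11 against 6.57, 7.0 and 5.93 and differed by -0.00 (95% interval -1.09 to 1.08). Control 3, ob/ob 1 and ob/ob 2 were its 3 highest arrays, and the 4 arrays gave 0.58. A dimmer Foxm1 probe ran the other way, at 5.36, 5.35 and 5.49 in control and 4.85, 4.96 and 3.11 in ob/ob iBAT, all ob/ob arrays below all control arrays (difference -1.09, limma's unadjusted p = 0.094).

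**Figure D3:**
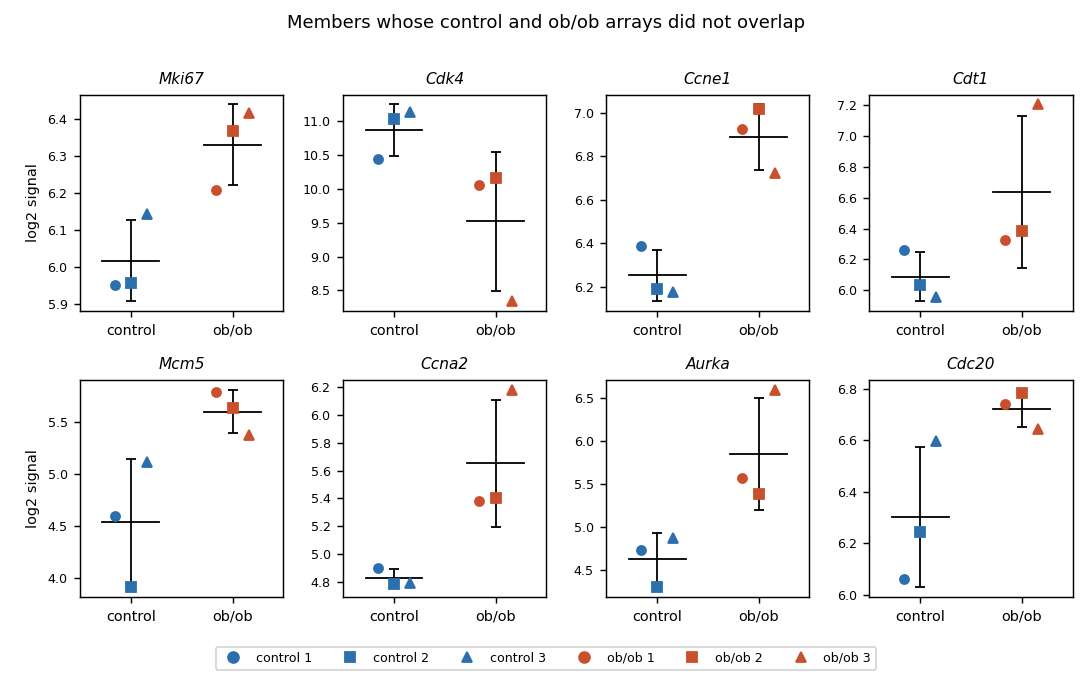
Log2 signal (vertical axes, a range of its own for each gene) of the 8 genes whose control arrays (blue) and ob/ob arrays (red) did not overlap; each symbol is 1 array, the horizontal line is the mean and the bar the SD of 3 arrays. ob/ob 3 (red triangle) sets the top of Cdt1, Ccna2 and Aurka and the bottom of Cdk4.

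Of the 10 genes for loading and running the replication fork, 7 had a difference above 0 and 3 below, with a median of 0.50. On the 4 arrays the genes were evenly split, with 5 of 10 above 0 and a median of -0.13. Mcm5, a subunit of the MCM2-7 helicase, had log2 signals of 4.59, 3.92 and 5.11 in control and 5.79, 5.63 and 5.38 in ob/ob iBAT. The groups did not overlap, although control 3 came close to ob/ob 3 and control 2 was not well above background. The difference was 1.06 with a standard error of 0.41, or 2.08-fold, with an unadjusted limma p of 0.039 and an adjusted p of 1.0. It was 1.45 on the 4 arrays and 0.93 within the shared scan, where ob/ob 1 alone stands against control 1 and control 3. Under the 75th percentile it was 0.64.

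Of the other MCM subunits, Mcm2, Mcm4 and Mcm6 were on average higher in ob/ob iBAT like Mcm5, and Mcm3 and Mcm7 lower, all with overlapping groups. Mcm2 gave 4.75, 4.39 and 3.79 in control and 3.98, 4.24 and 5.61 in ob/ob iBAT, overlapping groups with a difference of 0.30 (4 arrays -0.46). Mcm3 ranged from 3.99 to 7.08 in control and from 4.18 to 7.68 in ob/ob iBAT, with control 3, ob/ob 1 and ob/ob 2 as its 3 lowest arrays, and its difference went from -0.28 to -2.27 on the 4 arrays. Mcm2 and Mcm3 were each well above background on 2 control and 2 ob/ob arrays. For Mcm3, ob/ob 2 at 4.18 was not well above background, and it enters the value on the 4 arrays. Mcm4, Mcm6 and Mcm7 differed by 0.58, 0.80 and -0.30 (4 arrays 0.16, 0.26 and -1.08).

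Cdt1, which loads the helicase onto origins, had log2 signals of 6.26, 6.03 and 5.96 in control and 6.33, 6.38 and 7.21 in ob/ob iBAT. The groups did not overlap, but ob/ob 1 lay just above control 1 and the difference of 0.55 (standard error 0.37) was 0.27 without ob/ob 3 and 0.20 on the 4 arrays. Cdc6, its partner at origins, differed by -0.17, and Cdc45, which activates the helicase, by 0.44 (4 arrays 0.97), both with overlapping groups. Pcna, the sliding clamp of the polymerases, gave 9.35, 8.40 and 5.56 in control and 8.32, 7.61 and 11.15 in ob/ob iBAT. Control 3 was its lowest and ob/ob 3 its highest array. The difference of 1.26 had a standard error of 1.28 and turned to -0.91 on the 4 arrays.

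The 3 enzymes that make DNA building blocks all split the arrays across the groups. Rrm2, the small subunit of ribonucleotide reductase, whose level follows S phase, had log2 signals of 4.35, 4.20 and 8.96 in control and 9.19, 8.78 and 6.92 in ob/ob iBAT. Control 3 lay between ob/ob 1 and ob/ob 2, far above the other control arrays, and ob/ob 3 lay in the middle. The difference of 2.46, or 5.51-fold, was the largest of the 38 but had a standard error of 1.39 (limma's unadjusted p = 0.12; 4 arrays 4.71). Rrm1, the large subunit, ran the other way, with control 3, ob/ob 1 and ob/ob 2 lowest and a difference of -0.23 (4 arrays -1.09). Tyms, thymidylate synthase, ranged from 10.29 to 11.90 in control and from 9.01 to 11.79 in ob/ob iBAT, with a difference of -0.27 (4 arrays 1.04).

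Of the mitotic cyclins and kinases tested, 5 of 6 were higher on average in ob/ob iBAT, with a median difference of 0.83 (4 arrays 0.94, 6 of 6). Over all 19007 genes tested, 8149 were above 0 with a median of -0.09 (4 arrays 10132 and 0.067). For 3 of the 6, control 3, ob/ob 1 and ob/ob 2 lay above the other arrays, so leaving out control 3 and ob/ob 3 raises their difference. Aurka, the centrosome kinase that builds the spindle, had log2 signals of 4.74, 4.30 and 4.87 in control and 5.57, 5.39 and 6.59 in ob/ob iBAT. The groups did not overlap, and ob/ob 3 was highest. The difference was 1.21 with a standard error of 0.43, or 2.32-fold, with an unadjusted limma p of 0.030 and an adjusted p of 1.0. It was 0.96 on the 4 arrays, 0.84 without ob/ob 3 alone, 0.77 for ob/ob 1 alone against control 1 and control 3 of the shared scan, and 1.02 under the 75th percentile.

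Ccna2, the cyclin A of S phase and early mitosis, had log2 signals of 4.90, 4.79 and 4.80 in control and 5.38, 5.40 and 6.18 in ob/ob iBAT. The control arrays were close to each other and all ob/ob arrays lay above them. The difference was 0.83 with a standard error of 0.36 (limma's unadjusted p = 0.057; 4 arrays 0.55).

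Ccnb1, the cyclin B that drives entry into mitosis, gave 5.88, 6.12 and 9.07 in control and 8.70, 8.67 and 6.20 in ob/ob iBAT. Plk1, the polo-like kinase of mitosis, gave 5.37, 5.44 and 7.52 against 7.76, 7.89 and 6.51. Both genes were high on control 3, ob/ob 1 and ob/ob 2 and lower on the rest, the split seen in Rrm2. The difference of Ccnb1 was 0.84 with a standard error of 1.09 (4 arrays 2.69), and that of Plk1 1.27 with a standard error of 0.72 (4 arrays 2.42). Ccnb2, the second cyclin B, differed by 0.54 with overlapping groups, and control 3 was its highest array. Cdk1, the kinase that the mitotic cyclins activate, gave 5.46, 5.59 and 6.04 against 6.17, 5.79 and 4.94 and differed by -0.07 (95% interval -1.11 to 0.97). Aurkb, the kinase of the chromosomal passenger complex, was above background on 1 array alone, ob/ob 3 at 6.22, against 1.89 to 3.65 elsewhere. The ob/ob mean rests on that array, so no fold is given.

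**Figure D4:**
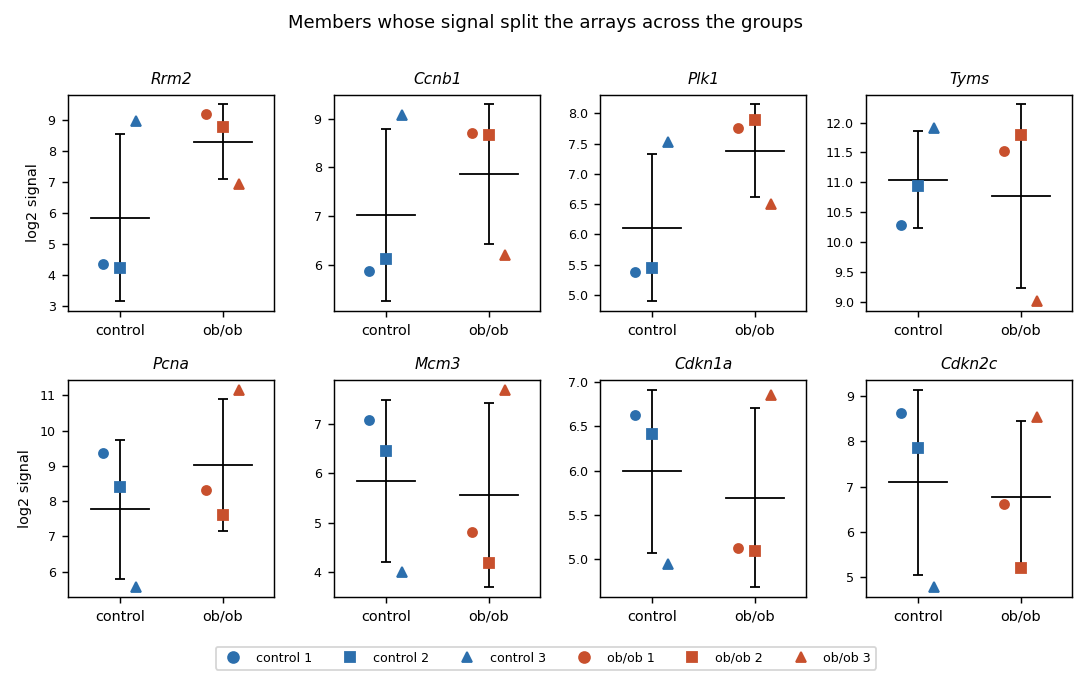
Log2 signal (vertical axes, a range of its own for each gene) of 8 genes that split the arrays across the groups; symbols, lines and bars as mean and SD of 3 arrays, control in blue and ob/ob in red. Control 3 (blue triangle) lies with ob/ob 1 and ob/ob 2 in Rrm2, Ccnb1, Plk1, Tyms, Mcm3 and Cdkn1a, and ob/ob 3 (red triangle) is the highest array for Pcna at 11.15.

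The genes for the spindle checkpoint, the mitotic motors and cytokinesis had 2 differences above 0 and 5 below, with a median of -0.13. On the 4 arrays 4 of 7 were above 0 and the median was 0.094. Cdc20, the activator of the anaphase-promoting complex, had log2 signals of 6.06, 6.24 and 6.6 in control and 6.74, 6.78 and 6.64 in ob/ob iBAT. The groups did not overlap, but control 3 lay just below ob/ob 3. The difference was 0.42 with a standard error of 0.31 (4 arrays 0.61). Birc5 (survivin), a member of the chromosomal passenger complex, gave 6.96, 7.46 and 5.90 against 6.08, 5.94 and 5.24. Control 3 lay below 2 ob/ob arrays, so the groups overlapped, and the difference was -1.02 with a standard error of 0.51 (4 arrays -1.20). Bub1 and Bub1b, kinases of the spindle checkpoint, differed by 0.18 and -0.11. The motors Kif11, Kif20a and Kif23 differed by -0.13, -0.13 and -0.72, and Kif23 was well above background on 2 control arrays and 1 ob/ob array.

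The inhibitors of the cyclin-dependent kinases showed no common direction on all 6 arrays. Cdkn1a (p21), the target of p53, gave 6.62, 6.41 and 4.94 in control and 5.13, 5.09 and 6.85 in ob/ob iBAT. Cdkn2c (p18), an inhibitor of CDK4 and CDK6, gave 8.63, 7.86 and 4.78 against 6.61, 5.20 and 8.53. Both were low on control 3, ob/ob 1 and ob/ob 2, the reverse of Rrm2, Ccnb1 and Plk1. Their differences were -0.30 (standard error 0.69; 4 arrays -1.40) and -0.31 (standard error 1.24; 4 arrays -2.34). A dimmer Cdkn1a probe gave -0.21 with overlapping groups. Cdkn2a, whose gene encodes p16 and p19, gave 6.32, 6.04 and 6.55 against 6.21, 6.72 and 6.21, a difference of 0.08 (95% interval -0.74 to 0.89). A dimmer Cdkn2a probe, at 1.77 to 2.93, was not well above background on any array and was not tested.

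Probes of the same gene did not always give the same picture. Of the 41 genes, 10 had more than 1 probe, with 14 further probes in all. The brightest Ccnb1 probe split the arrays as described, whereas another Ccnb1 probe gave 5.25, 5.34 and 5.74 in control and 6.56, 6.44 and 6.33 in ob/ob iBAT. All ob/ob arrays of that probe lay above all control arrays, and its difference was 1.0 with a standard error of 0.31 (limma's unadjusted p = 0.017). The remaining Ccnb1 probe differed by -0.05. For Birc5 the brightest probe gave -1.02 and the others 0.13 and 1.28, the last at 4.86, 4.86 and 5.04 in control and 6.17, 5.56 and 6.86 in ob/ob iBAT without overlap (limma's unadjusted p = 0.020). The direction for Birc5 therefore depended on the probe, also on the 4 arrays, where the brightest probe gave -1.20 and the last 1.01. Both further Cdk1 probes were below background on every control array and read 3.60, 1.69 and 6.65, and 4.70, 1.71 and 7.11, on ob/ob arrays 1 to 3. They were above background on 1 and 2 ob/ob arrays, and on ob/ob 2 both lay within the range of the control arrays. No fold is therefore given for them.

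**Figure D5:**
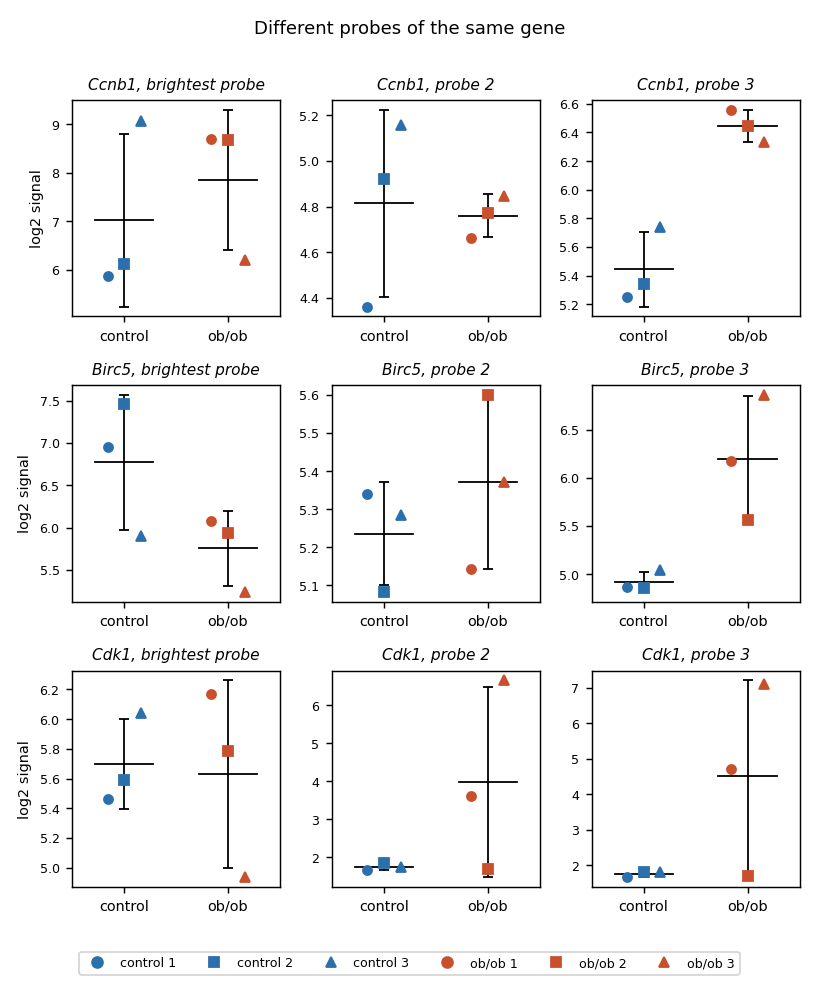
Log2 signal (vertical axes, a range of its own for each panel) of each probe of Ccnb1, Birc5 and Cdk1 on control arrays (blue) and ob/ob arrays (red), with the mean and SD of 3 arrays. The panels titled probe 3 of Ccnb1 and Birc5, with differences of 1.0 and 1.28, separate the groups upward, unlike the brightest probes, and the further Cdk1 probes are raised on ob/ob 1 and ob/ob 3 alone.

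A list of further genes of replication, mitosis and cell cycle control held 102 symbols, among them the old and the current symbol of Sgo1. Of these symbols, 100 were named on the array and 93 were tested. At an adjusted p under 0.05 the list held 0. At an unadjusted p under 0.05 it held 5 higher and 1 lower in ob/ob iBAT, beside 2.03% and 1.68% of all genes. The groups did not overlap for 7 higher and 3 lower, beside 3.76% and 4.19% of all genes, and the median difference was 0.10. Smc2, a condensin subunit that compacts chromosomes, had log2 signals of 7.19, 6.39 and 6.31 in control and 7.69, 7.85 and 7.93 in ob/ob iBAT, a difference of 1.20 (limma's unadjusted p = 0.016). Cenpe, a kinetochore motor, gave 5.24, 5.39 and 5.57 against 6.49, 6.05 and 6.26, a difference of 0.87 (limma's unadjusted p = 0.030). These genes had all ob/ob arrays above all control arrays, control 3 included. Prc1, which bundles the midzone of the spindle, and Cenpk, a centromere protein, differed by 0.92 and 0.76 without overlap. Cdkn1c (p57), an imprinted CDK inhibitor, gave 9.58, 9.36 and 6.26 against 5.12, 5.27 and 7.11, a difference of -2.57 (limma's unadjusted p = 0.045; 4 arrays -4.28). Control 3 lay below ob/ob 3, so its groups overlapped. Rbl1 (p107), a retinoblastoma relative, and Pold1, the catalytic subunit of polymerase delta, differed by -0.75 and -0.36 with all ob/ob arrays below the control arrays.

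Genes of other cell types moved across the same arrays. iBAT is bulk tissue, in which fewer cells of a type and less RNA per cell cannot be told apart. limma called 0 genes of these marker lists at an adjusted p under 0.05. At an unadjusted p under 0.05 it put 1 lymphocyte and 1 muscle gene higher and 2 brown adipocyte genes lower in ob/ob iBAT. Over all genes tested, 2.03% were higher and 1.68% lower at that threshold. The mean log2 level of 8 endothelial markers was 7.07 to 8.84 on the control arrays and 6.22 to 8.02 on the ob/ob arrays, and 8 adipocyte progenitor markers spanned 6.78 to 8.55 and 6.34 to 8.86. For both lists, 7 of 8 genes were lower on control 3, ob/ob 1 and ob/ob 2 than on the other arrays, as were 7 of 8 muscle, 5 of 6 adipocyte, 4 of 6 brown adipocyte and 3 of 4 erythroid markers, 10 of the 38 cell cycle genes and 5725 of all 19007 genes. The 9 macrophage markers tested spanned 7.27 to 7.53 and 7.45 to 7.84, with a median difference of 0.23, and 10 lymphocyte markers 6.92 to 7.55 and 6.32 to 7.51. In the lymphocyte list, 5 of 10 genes were higher on control 3, ob/ob 1 and ob/ob 2 than on the other arrays, as were 8 of the 38 cell cycle genes and 5990 of all 19007 genes.

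Markers of muscle and blood differed between arrays as well. The 8 skeletal muscle markers averaged 7.42 to 9.75 in control and 5.68 to 11.01 in ob/ob iBAT, and 4 erythroid markers 6.62 to 9.17 and 5.79 to 10.36, with ob/ob 3 the highest array for both lists. On ob/ob 3, Myh2, a fast muscle myosin, had a log2 signal of 14.97 against 4.84 to 11.21 on the other arrays. The 6 brown adipocyte markers averaged 8.16 to 11.39 in control and 7.44 to 8.51 in ob/ob iBAT, and Ucp1 gave 13.05, 11.72 and 9.48 against 8.93, 9.12 and 10.03. The 6 markers of adipocytes in general averaged 9.60 to 11.87 and 10.01 to 11.71. The part of these cell types in the values of the cell cycle genes was not tested.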

How the data were processed

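RNA from 3 control and 3 ob/ob samples of iBAT was measured on Agilent arrays with 1 colour. The authors extracted signals with Agilent Feature Extraction 11.0.1.1 and deposited the background-subtracted intensity of each spot. They also deposited a table of quantile-normalized log2 values, made in GeneSpring. Array by array, its correlation with the scanner files was 0.987 to 0.998, and it served as an alternative.

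Spots with an outlier flag were removed (104 probes lost all spots on an array), log2 values of repeated spots were averaged per probe, and arrays were quantile normalized. Of 39429 probes, 28684 carried a RefSeq accession and 27234 were named through RefSeq's gene table. Probes well above background in at least 0.5 of their spots on at least 3 of 6 arrays were tested with limma 3.58.1 in R 4.3.3 (lmFit, eBayes), for the difference ob/ob minus control. P-values were adjusted by Benjamini-Hochberg over 35448 probes. The fit was tested on simulated arrays with independent noise, so that test does not cover the split of arrays across the groups seen here. Replicate numbers come from sample titles. For a probe below background on a whole group no fold is given, because the other group also held arrays below background. Intervals are 95% t intervals of the fit.

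The genes, lists and alternatives were chosen with earlier results of these data known. Values per array were given for 16 genes fixed by name, every gene without overlap or with an unadjusted p under 0.05, and the largest difference in each role. Of the further cell cycle genes, those named were the 4 largest in each direction, where as many existed, among those well above background on all arrays with no overlap or an unadjusted p under 0.05. Individual probes beyond the brightest were described after their values were seen. Figures were drawn in matplotlib 3.10.9. Alternatives covered scaling, background correction, detection, the test, the probe, the block, the scan and the arrays.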

Additional observations from a re-analysis of the deposited data

How the results depend on the processing

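Signal below background kept 3 of the 41 genes from the test. No alternative that kept all 6 arrays at equal weight, and none that left out a single array, called any cell cycle gene at an adjusted p under 0.05. limma with array quality weights called 18 of 38, 10 higher and 8 lower, where 24.5% and 27.7% of all genes were called. The weights ran from 6.74 (control 2) to 0.0821 (ob/ob 3). Leaving out control 3 and ob/ob 3 called 16, 9 higher and 7 lower, where 22.3% and 27.3% of all genes were called. At an unadjusted p under 0.05, the 2 genes higher in ob/ob iBAT became 0 under 75th percentile scaling, 0 with the scan as a block (which rests on ob/ob 1 alone against control 1 and control 3), 1 with detection on all 6 arrays, 5 with the methods' t-test, 13 with array weights and 12 without control 3 and ob/ob 3. Leaving out single arrays gave 0 to 5: 5 without control 3, 4 without ob/ob 3, 1 without ob/ob 2 and 0 without control 1, control 2 or ob/ob 1. The count of lower genes, 0, became 1 with normexp, 11 with array weights and 9 without control 3 and ob/ob 3, and 0 to 1 without single arrays (1 without control 3, ob/ob 2 or ob/ob 3). Shares of all genes at an unadjusted p were not computed for these alternatives, so the counts are no result about the cell cycle genes. The cause of these changes was not tested. Under the 75th percentile the median difference turned from 0.13 to -0.17 for the 38 genes and from 0.10 to -0.076 for the further genes.

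Same-numbered control and ob/ob arrays deviated from their group means with correlations of -0.78, -0.66 and -0.85. For control 1 and ob/ob 3 the correlation was 0.87. Control 3 and ob/ob 3 stand apart from their groups and enter all these values. The values therefore cannot show whether shared replicate numbers pair the samples. With the replicate block, 0 genes were higher at an unadjusted p under 0.05 and 0 at an adjusted p under 0.05.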
